A study of Mus musculus with 4 samples.

Results

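Proliferating macrophages of the mouse renal capsule were the barcodes that carried the transcripts of the complement C1q chains, which mark tissue macrophages, together with those of Mki67 and Top2a, which mark cells in cycle. They were chosen on raw counts of unique molecular identifiers (UMIs, one count per captured transcript). Barcodes entered with 500 or more UMIs, 300 or more genes and no more than 20% of UMIs from mitochondrial genes. A member also needed 6 or more UMIs of C1qa, C1qb and C1qc together, 2 or more of Mki67 and Top2a together, and 0 of the T cell gene Cd3e and the B cell gene Cd79a. These limits chose 267 barcodes, 2.61% of the 10223 C1q macrophages and part of 37361 barcodes past the filters. The aged libraries held 27 and 43 of them (70 in all) and the young libraries 90 and 107 (197 in all). The remaining 9956 C1q macrophages, with 0 or 1 Mki67 and Top2a UMI, are called other macrophages.

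The renal capsule is the connective tissue sheath of the kidney, and the series asked how its cells differ between aged and young mice. Whole capsules were digested and profiled by droplet single-cell sequencing of transcript 3′ ends, with 2 aged and 2 young libraries. Neither group was treated. The sources used here give neither age in months, strain nor how many mice each library holds. Libraries of 1 age may thus be technical replicates, and every p-value reflects only how far these 4 libraries spread.

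Tissue macrophages can renew themselves by local division, without a stem cell stage, as well as by the entry of blood monocytes that carry the receptor Ccr2. Growth factors acting on the receptor Csf1r drive that division, and the transcription factor Maf is known to help hold mouse macrophages out of cycle. In a dividing cell, DNA replication genes come first, with the Mcm helicase, the sliding clamp Pcna and nucleotide-making enzymes such as Rrm2. The genes of mitosis follow, with the cyclins Ccna2 and Ccnb2, the kinase Cdk1 and the spindle motors. Mki67 encodes the coat of mitotic chromosomes and Top2a the enzyme that untangles DNA strands.

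The 4 libraries held 7067 and 12289 deposited barcodes with 51180311 and 65118489 UMIs for the aged mice, and 9712 and 10368 barcodes with 68052444 and 70925446 UMIs for the young mice. Pairs of libraries shared 18 to 37 barcode sequences. Because C1q transcripts also float free between droplets, the C1q limit was read in other cells: 6 or more C1q UMIs were found in 3.47% and 4.91% of aged fibroblasts and in 5.92% and 7.78% of young fibroblasts. The proliferating macrophages stood far above that limit, with a median of 125 C1q UMIs, and 39 of the 267 had under 20. At the limit on cycling transcripts, 54 had exactly 2 Mki67 and Top2a UMIs, and 361 macrophages with exactly 1 fell just outside. Both genes were seen in 207 of the 267.

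Summed over each library, the proliferating cells carried macrophage markers, but single barcodes near the C1q limit did not all read as macrophages. None of 15 pan-macrophage genes was at 0 in the proliferating cells of any library, and their summed level was 17142 and 16256 CPM (UMIs of a gene per 1000000 summed UMIs) in aged and 15531 and 13860 CPM in young libraries. Other macrophages had 22676 and 21973 CPM in aged and 19327 and 19780 CPM in young libraries, so the list stood lower in the proliferating cells of each library. The 10 dendritic cell genes summed to 76.8 and 260 CPM in aged and 121 and 239.8 CPM in young proliferating cells, with 3, 1, 1 and 0 of the 10 at 0. In the other macrophages they summed to 266 and 241 CPM in aged and 167 and 151 CPM in young libraries. Over the 7 dendritic genes tested the median log2 ratio of proliferating over other macrophages was 1.00, against -0.65 for the pan-macrophage list. Of the 267 barcodes, 28 held more fibroblast-list than C1q UMIs (1 and 1 aged, 10 and 16 young), and 14 of these were not marked as doublets. More dendritic-list than C1q UMIs were held by 8 barcodes (0 and 4 aged, 0 and 4 young), all with under 20 C1q UMIs. Among the 39 barcodes under 20 C1q UMIs, 11 were of the first kind and 8 of the second. The 228 barcodes with 20 or more C1q UMIs held 17 of the first kind and 0 of the second. Only these 2 lists were counted against C1q, and some of the 228 held more UMIs of another lineage. A barcode of aged library 1 had 426 T and NK cell UMIs against 273 of C1q. In aged library 2 a barcode had 90 endothelial UMIs against 22 of C1q. In young library 2 a barcode had 1476 other-lineage UMIs, 2 of them fibroblast, against 205 of C1q. Proliferating cells were deeper, with median UMIs of 16741 and 12872 in aged and 11826 and 11391 in young libraries, against 9882 and 6911 in aged and 7489 and 7648 in young other macrophages. A doublet score (Scrublet) marked 44.4% and 53.5% of aged and 31.1% and 20.6% of young proliferating cells (85 in all), and 6.32% and 13.6% of aged and 12.5% and 12.8% of young other macrophages. Whether these are doublets or deep dividing cells cannot be told apart. Calls that were lost or could not be tested without them are named beside the genes.

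Fewer of the aged than of the young macrophages were proliferating. The share was 1.63% (exact binomial 95% interval 1.08 to 2.36%) and 1.63% (1.18 to 2.19%) in the aged libraries, against 3.20% (2.58 to 3.92%) and 3.42% (2.81 to 4.12%) in the young libraries. The aged and young values did not overlap, and neither did their intervals, which cover counting error only. The means were 1.63 ± 0.00234% in aged and 3.31 ± 0.155% in young libraries (SD, n = 2 each), a ratio of 0.493. A two-sided exact permutation test gave p = 0.333, the smallest that 2 libraries against 2 allow. Macrophages themselves were 24.5% and 21.98% of aged and 31.3% and 32.4% of young barcodes. As a share of all barcodes, proliferating macrophages stood at 0.399% and 0.359% in aged and 1.00% and 1.11% in young libraries, a ratio of means of 0.359 (exact permutation p = 0.333).

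Depth per barcode differed between libraries, and aged library 1 was the deepest in both kinds of macrophage. With every macrophage thinned to 3000 UMIs, which left out 131 and 321 aged and 267 and 375 young macrophages, 0.918% and 1.04% of aged and 2.24% and 2.47% of young macrophages kept 2 or more Mki67 and Top2a UMIs. Without the barcodes marked as doublets the shares were 0.973% and 0.887% in aged and 2.54% and 3.13% in young libraries, a ratio of 0.328. With 20 or more C1q UMIs required they were 1.40% and 1.49% in aged and 3.10% and 3.11% in young libraries, a ratio of 0.465. Aged shares lay below young shares under each of the 12 alternatives tried for this value. In all cell types together 805 barcodes had 2 or more Mki67 and Top2a UMIs. Macrophages made up 18.1% and 18.1% of these cycling barcodes in aged and 43.5% and 50.5% in young libraries. That share also depends on the other cells present. T cells numbered 914 and 1075 in aged and 117 and 93 in young libraries, and B cells 712 and 1046 against 93 and 125. Among T cells 4.05% and 3.35% were cycling in aged and 7.69% and 7.53% in young libraries. Among B cells it was 1.54% and 1.63% in aged and 0% and 0% in young libraries. Among dendritic cells chosen by marker genes, 13.01% and 13.6% were cycling in aged and 15.5% and 14.1% in young libraries. Among fibroblasts the cycling shares were 0.138% and 0.484% in aged and 1.05% and 1.06% in young libraries. The shares of macrophages lay above those of fibroblasts in the same library, whose median depth was 8234 and 5476 UMIs in aged and 7481 and 7334 UMIs in young libraries.

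**Figure D1:**
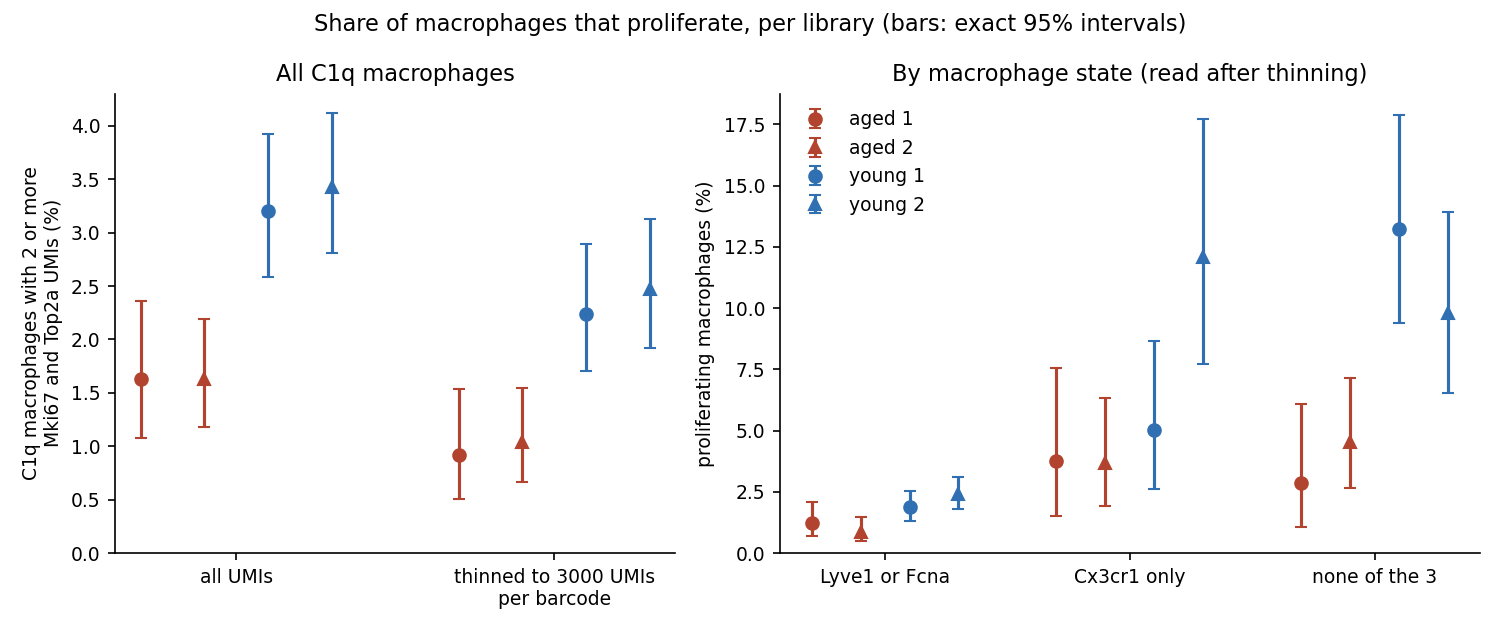
Share of C1q macrophages that were proliferating (percent, y axis) in each library, with exact 95% intervals as bars; left, with all UMIs and after thinning to 3000 UMIs, and right, within 3 macrophage states. The aged libraries sit at 1.63% and the young libraries at 3.20% and 3.42% on the left, and the young points lie above the aged points in each state on the right.

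The proliferating share was also read within macrophage states. Macrophages were divided, after thinning, into those with a UMI of Lyve1 or Fcna, which mark resident perivascular macrophages, those with only Cx3cr1, the fractalkine receptor, and those with none of the 3. Among Lyve1 or Fcna macrophages, 1.24% and 0.871% of aged and 1.86% and 2.40% of young cells were proliferating. Among Cx3cr1 macrophages the shares were 3.74% and 3.67% in aged and 5.04% and 12.1% in young libraries. Among those with none of the 3 they were 2.84% and 4.52% in aged and 13.2% and 9.78% in young libraries. The ratios of the aged to the young mean were 0.496, 0.433 and 0.320 in these 3 states, each with exact permutation p = 0.333. For Cx3cr1 macrophages young library 2 decided the size, since the ratio was 0.735 without it. Part of the cells with none of the 3 lay near the C1q limit. With 20 or more C1q UMIs required, young library 2 kept 14 of its 27 proliferating cells of this kind. The shares were then 1.56% and 3.65% in aged and 13.6% and 6.86% in young libraries, a ratio of 0.254. A Lyve1 or Fcna UMI was also found in 3.84% and 3.69% of aged and 5.34% and 5.98% of young fibroblasts thinned alike, and a Cx3cr1 UMI in 1.28% and 1.15% of aged and 0.945% and 0.921% of young fibroblasts.

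Cell cycle genes were lower in aged macrophages when no limit on Mki67 or Top2a was set. These sums include the proliferating cells, so the values are not separate from their lower share. In the summed counts of all C1q macrophages, Mki67 fell with age by 1.01 on the log2 scale (edgeR quasi-likelihood test with Benjamini-Hochberg adjustment, adjusted p = 0.0148) and Top2a by 0.86 (adjusted p = 0.0147). Of the 15504 genes tested there, 1188 (7.66%) passed, 441 (2.84%) higher and 747 (4.82%) lower in aged macrophages. Among cell cycle lists, 10 of 31 spindle and cytokinesis genes fell, including the spindle assembly factor Tpx2 (by 1.23, adjusted p = 0.0292) and the microtubule bundler Nusap1 (by 1.06, adjusted p = 0.0272), with a list median of -0.81. DNA replication had 7 of 35 genes falling (median -0.31), including the helicase subunit Mcm5 (by 0.78, adjusted p = 0.0184) and the clamp partner Pclaf (by 1.01, adjusted p = 0.0204). Of 23 kinetochore genes 3 fell (median -0.66), among them Knl1, and of 14 DNA repair genes 3 fell (median -0.60), among them Brca1. Cdk1 fell by 1.16 (adjusted p = 0.0243) and Foxm1, a transcription factor of mitotic genes, by 1.10 (adjusted p = 0.0488). The Foxm1 call was lost with DESeq2 (adjusted p = 0.190) and with any 1 of the 4 libraries left out (0.0627 to 0.233). Without young library 1 the calls of Top2a (0.0538), Tpx2 (0.0626), Mcm5 (0.0941), Pclaf (0.0587) and Knl1 (0.0936) were lost, and that of Knl1 also without young library 2 (0.0511). No gene rose in the 9 cell cycle lists, which also hold nucleotide synthesis, histone, condensation, cyclin and transcription factor genes. In a separate list of 15 cell cycle inhibitors 1 gene rose and 1 fell. The median of all genes was -0.0011. In the other macrophages alone, 1 of 34 DNA replication, 1 of 28 spindle and 0 of 21 kinetochore genes fell, against 4.95% of all genes. Their list medians were -0.17, -0.42 and -0.56, in cells whose choice limits Mki67 and Top2a. In summed counts fewer cycling cells and less transcript per cycling cell cannot be told apart, and the values within the proliferating cells are given next.

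Within the proliferating cells no gene of the cell cycle lists passed the age test. Mki67 stood at 461 and 497 CPM in aged and 616 and 547 CPM in young proliferating cells (log2 difference -0.22 ± 0.17 SE, adjusted p = 0.783). Top2a stood at 594 and 417 CPM in aged and 580.5 and 490.1 CPM in young libraries (-0.04 ± 0.20, adjusted p = 0.983). The rule set a floor on the sum of these 2 genes, so their levels inside the group are partly fixed by it. Cdk1 stood at 147 and 157 CPM in aged and 197 and 179.8 CPM in young libraries (-0.25 ± 0.19, adjusted p = 0.784), and the spindle motor Kif11 at 107 and 117 CPM in aged and 116 and 103 CPM in young libraries (0.09 ± 0.21, adjusted p = 0.943). The lists without a call held 34 genes of DNA replication (median -0.08), 31 of spindle and cytokinesis (median -0.22) and 23 of the kinetochore (median -0.01), beside 6 further lists. Outside the lists the replication histone Hist1h2af rose by 1.93 (edgeR adjusted p = 0.0374), a gene chosen after its values were seen. A p that misses the threshold does not show that the levels are alike. In simulated sums of this size 19% of 2-fold and 82% of 4-fold changes were called.

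The proliferating cells were led by mitosis genes, which follow from the choice by Mki67 and Top2a and are given without a test. Of 8622 genes tested in them, 463 (5.37%) were over 2-fold higher than in other macrophages in all 4 libraries and 52 (0.603%) over 2-fold lower. Ube2c, the ubiquitin-conjugating enzyme that acts at the end of mitosis, had 189 and 409 CPM in aged and 396 and 433 CPM in young proliferating cells, against 0.611 and 0.594 CPM in aged and 1.28 and 2.78 CPM in young other macrophages. Its level was lowest in aged library 1. Pclaf, which binds the clamp Pcna, had 305 and 299 CPM in aged and 391 and 294 CPM in young proliferating cells, against 0.672 and 1.08 CPM in aged and 1.92 and 3.19 CPM in young other macrophages. Ccnb2, a cyclin of mitotic entry, had 95.5 and 142 CPM in aged and 159 and 151 CPM in young proliferating cells, against 0.489 and 0.702 CPM in aged and 0.821 and 1.87 CPM in young other macrophages. The log2 ratios of mean CPM were 7.27 for Ube2c, 6.90 for Pclaf, 6.17 for Kif11 and 6.13 for Ccnb2. The linker histone Hist1h1b (7.29), the survivin gene Birc5 (7.11), the spindle bundlers Nusap1 and Prc1 (6.63 and 6.63), the histone gene Hist1h3c (6.43), the spindle protein gene Hmmr (6.39), the cyclin Ccna2 (6.27), Cdca3 (6.19) and the kinetochore scaffold Knl1 (6.15) stood near them.

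The promoters of 4 of these leading genes are shown because 3 of them hold a letter pattern common in front of mitosis genes and the fourth, a replication gene, lacks it. The sequences are RefSeq's for build GRCm38.p6, from 250 bases before to 50 after the start of the gene, 5′ to 3′ on the gene's strand. Capitals mark TTTGAA (the cell cycle homology region of mitosis genes) and CCAAT (the site of factor NF-Y), or their reverse complements. Ube2c lies at chr2:164769679-164769978 (+), Kif11 at chr19:37376132-37376431 (+), Ccnb2 at chr9:70421505-70421804 (-) and Pclaf at chr9:65890073-65890372 (+).
Ube2c: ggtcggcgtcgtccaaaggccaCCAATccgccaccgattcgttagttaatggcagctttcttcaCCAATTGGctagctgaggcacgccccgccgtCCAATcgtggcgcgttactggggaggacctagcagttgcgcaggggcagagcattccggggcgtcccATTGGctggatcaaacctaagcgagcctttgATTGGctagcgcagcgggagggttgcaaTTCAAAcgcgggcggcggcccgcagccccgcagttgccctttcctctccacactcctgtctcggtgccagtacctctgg
Kif11: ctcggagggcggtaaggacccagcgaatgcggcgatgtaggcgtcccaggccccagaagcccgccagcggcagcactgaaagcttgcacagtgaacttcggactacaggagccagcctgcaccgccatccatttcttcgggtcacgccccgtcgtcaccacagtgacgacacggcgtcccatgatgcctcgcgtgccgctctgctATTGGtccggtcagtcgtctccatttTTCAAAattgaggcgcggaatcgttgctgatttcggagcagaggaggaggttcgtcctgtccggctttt
Ccnb2: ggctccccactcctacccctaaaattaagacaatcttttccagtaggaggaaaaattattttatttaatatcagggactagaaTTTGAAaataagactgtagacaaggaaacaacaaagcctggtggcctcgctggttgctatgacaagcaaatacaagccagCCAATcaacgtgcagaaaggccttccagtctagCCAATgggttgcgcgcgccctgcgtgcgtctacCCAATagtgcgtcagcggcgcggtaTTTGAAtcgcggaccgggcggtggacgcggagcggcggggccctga
Pclaf: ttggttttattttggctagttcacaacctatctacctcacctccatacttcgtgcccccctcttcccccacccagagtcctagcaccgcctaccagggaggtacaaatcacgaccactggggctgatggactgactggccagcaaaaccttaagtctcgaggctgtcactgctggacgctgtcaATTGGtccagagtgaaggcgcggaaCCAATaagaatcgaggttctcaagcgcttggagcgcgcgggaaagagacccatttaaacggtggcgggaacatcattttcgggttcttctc
TTTGAA stands 29 bases before the start in Ube2c, 19 before in Kif11, and both 167 before and 4 after in Ccnb2, and does not occur in this window of Pclaf. On either strand, 44 of 76 division-list genes with a promoter entry (57.9%) held TTTGAA, against 5 of 41 replication-list genes (12.2%) and 5466 of all 27025 genes (20.2%). CCAAT was held by 65.8% of division genes, 63.4% of replication genes and 41.1% of all genes. Of the 15 leading genes 12 had a promoter entry, and 9 of these held TTTGAA. The printed 4 do not stand for all of them, since Birc5 and Nusap1 held neither TTTGAA nor CCAAT. The 2 motifs share a base in 47 of 32851 promoters and in 0 of those printed. A match is a description of letters and not of a bound site.

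The other genes of the cycle stood high with Mki67 and Top2a. All 34 DNA replication genes tested were over 2-fold higher than in other macrophages in each library (median log2 ratio 2.86), as were 30 of 31 spindle genes (4.85), 22 of 23 kinetochore genes (4.43), 15 of 15 histone and chromatin assembly genes (3.51) and 14 of 14 DNA repair genes (3.41). Of 27 cyclin, kinase and anaphase-promoting complex genes, 20 passed that fold, and the exceptions included the early cyclins Ccnd1, Ccnd2 and Ccnd3 with their partners Cdk4 and Cdk6. Of 13 inhibitors of the cycle tested, 7 stood higher and 2 lower in all 4 libraries (median 0.64), and 2 were over 2-fold higher. Among the inhibitors, Cdkn2c stood at 102 and 87.8 CPM in aged and 114 and 119.9 CPM in young proliferating cells (log2 ratio 2.35). Other macrophages had 17.0 and 20.7 CPM of Cdkn2c in aged and 22.4 and 20.2 CPM in young libraries. Cdkn1a, the gene of the inhibitor p21, stood at 235 and 252 CPM in aged and 313 and 249.6 CPM in young proliferating cells, against 123 and 134 CPM in aged and 130.02 and 134 CPM in young other macrophages. The median over all tested genes was 0.07.

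**Figure D2:**
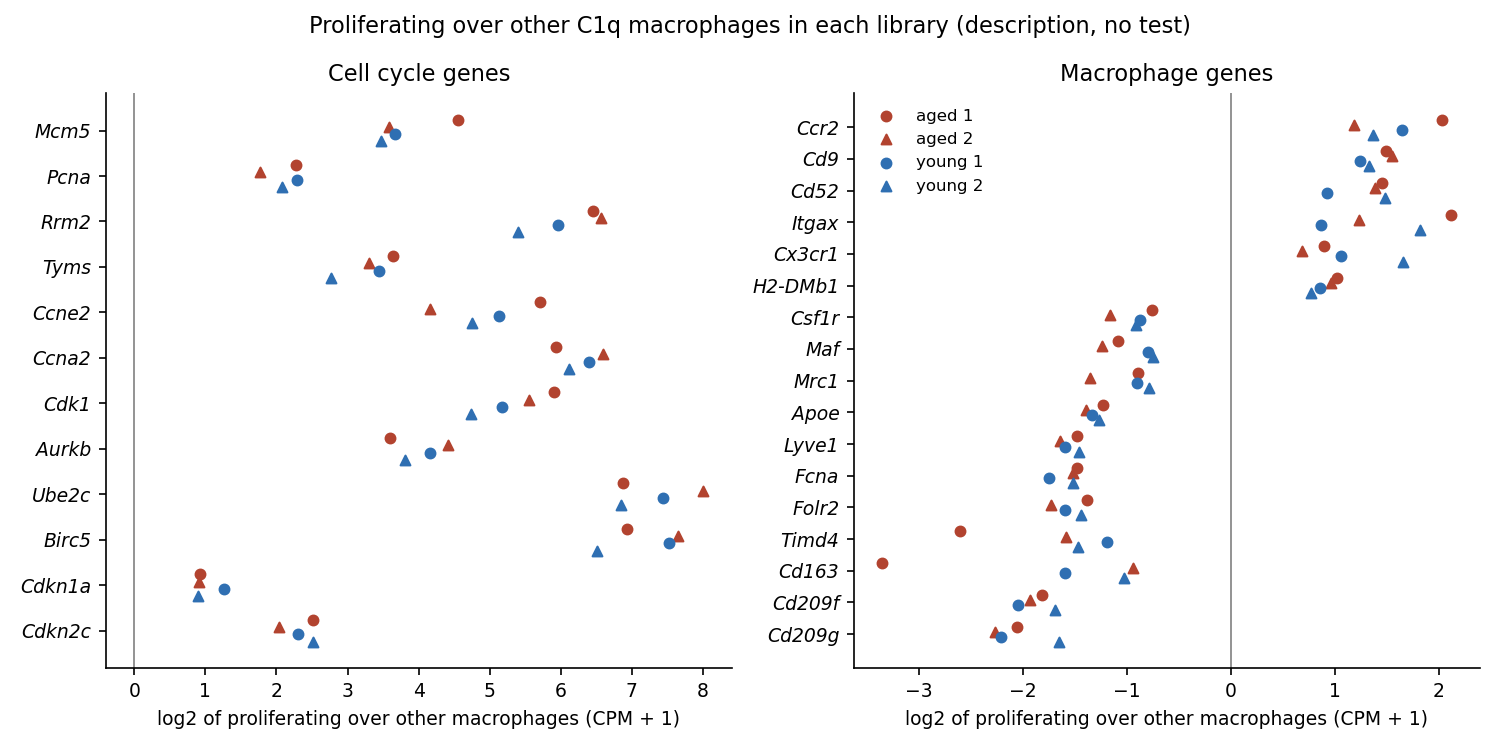
Log2 ratio of proliferating over other macrophages, in CPM with 1 added (x axis), for 12 cell cycle genes on the left and 17 macrophage genes on the right, 1 point for each library. All points of the cell cycle genes lie above 0; Ccr2, Cd9, Cd52, Itgax, Cx3cr1 and H2-DMb1 lie above 0, and Csf1r to Cd209g lie below 0 in the 4 libraries.

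Most proliferating macrophages carried more transcripts of division than of replication, which follows in part from their choice by Mki67 and Top2a. The division lists took a median of 71.9% and 82.4% of the UMIs of both kinds of list in aged cells, and 74.7% and 79.5% in young cells (means 77.1% and 77.1%, exact permutation p = 1). Division UMIs were over 50% of the sum in 23 of 27 and 39 of 43 aged cells, and in 81 of 90 and 96 of 107 young cells. Over 90% was reached by 1 and 9 aged and 18 and 25 young cells. The lists differ in length (95 division and 49 replication genes) and level, so these shares place cells relative to each other. They set no phase, and 65 cells lay between 40 and 60%.

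**Figure D3:**
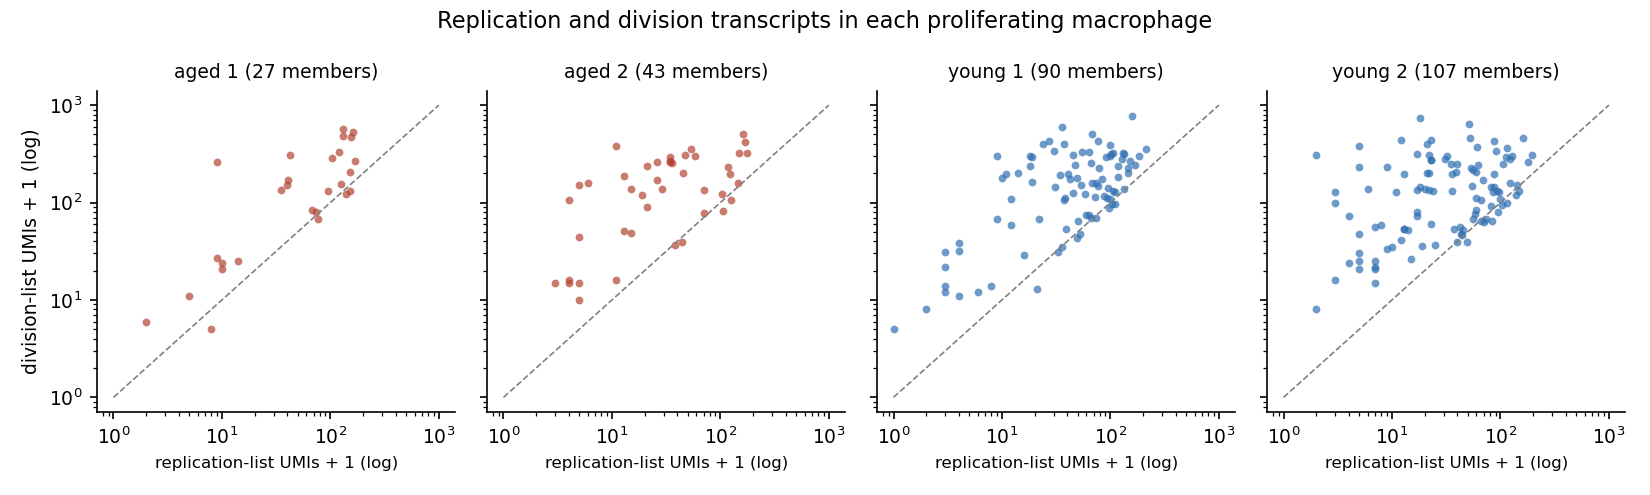
UMIs of the replication lists (x axis) against those of the division lists (y axis), both with 1 added and on log axes, for each proliferating macrophage, 1 panel for each library with 27, 43, 90 and 107 cells. Most points lie above the dashed line of equal counts, in aged and young libraries alike. The choice by Mki67 and Top2a and the longer division lists add to this.

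In their summed counts the proliferating cells were lower in resident genes than other macrophages. They were higher in Ccr2 and in 10 genes of the Cx3cr1 and MHC class II list. Because C1q and the cycle genes chose the cells, this contrast too is a description. The sums include the barcodes with more fibroblast-list (28) or dendritic-list (8) than C1q UMIs, and were not read again without them. Over the 7 dendritic genes tested the median log2 ratio was 1.00, with 2 higher and 1 lower in all 4 libraries. Of 19 resident perivascular genes, 18 stood lower in the proliferating cells of all 4 libraries, with a median log2 ratio of -1.28, and 8 of them by over 2-fold. Over all tested genes 21% were lower in all 4 libraries and 28.8% higher. Lyve1, the hyaluronan receptor, had 303 and 221 CPM in aged and 390.4 and 470.4 CPM in young proliferating cells, against 846 and 692 CPM in aged and 1179 and 1295 CPM in young other macrophages. Folr2, a folate receptor, had 785 and 568 CPM in aged and 759 and 884 CPM in young proliferating cells, against 2044.5 and 1877 CPM in aged and 2296 and 2392 CPM in young other macrophages. The lectin Cd209g (-2.03), the phosphatidylserine receptor Timd4 (-1.57) and the haemoglobin scavenger Cd163 (-1.42) stood lower too. Csf1r (-0.91) and Maf (-0.94), which act on macrophage growth, were lower in all 4 libraries.

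In the other direction, Ccr2 had 573 and 359.8 CPM in aged and 546 and 312 CPM in young proliferating cells. Other macrophages had 139 and 158 CPM in aged and 174 and 121 CPM in young libraries. The monocyte and neutrophil list, which holds Ccr2, did not stand higher as a whole. Of its 3 genes tested, 1 was higher and 1 lower in all 4 libraries (median -0.72). Of 16 genes of the Cx3cr1 and MHC class II list 10 stood higher in all 4 libraries, with a list median of 0.56, among them the integrin Itgax (1.55), Cd52 (1.33) and Cx3cr1 (1.01). The growth genes Bhlhe40 (1.85) and Myc (1.49) stood higher as well. Of 20 macrophage growth regulator genes tested, however, 5 were higher and 7 lower in all 4 libraries (median -0.19). Of 16 interferon response genes 11 were lower (median -0.68). The genes furthest below were the complement gene C6 (-2.09), Cd209d (-2.06), the gelatinase Mmp9 (-2.02), Tslp (-1.94), Pla2g2d (-1.78), Clec10a (-1.73), Ang (-1.71) and C4b (-1.64). Whole-transcriptome shares move here, since the cycle genes took a median of 1.45% and 1.41% of UMIs in aged and 1.95% and 1.69% in young proliferating cells, against 0.213% and 0.213% in aged and 0.221% and 0.224% in young other macrophages.

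Inside the proliferating cells, age changed 80 of the 8622 genes tested (0.928%), 25 higher (0.29%) and 55 lower (0.638%) in aged cells. The rising genes included 4 antigen presentation genes of MHC class II and the chemokine Cxcl13, and the falling genes were led by collagens. In other macrophages, whose sums hold many more cells, 1231 of 15326 genes (8.03%) passed, 473 higher (3.09%) and 758 lower (4.95%). Of the 55 falling genes 49 also fell in other macrophages, and of the 25 rising genes 7 also rose there.  The number of calls depended on the cells and libraries used: it was 25 without the barcodes marked as doublets, 46 without those with 10 or more UMIs of other lineages (an alternative chosen after seeing the data), and 158 to 256 with 1 library left out.

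The MHC class II genes present peptides to helper T cells. H2-Eb1, at chr17:34305867-34316674 (GRCm38), had 5595 and 5509.8 CPM in aged and 2866 and 2729.9 CPM in young proliferating cells. That was a log2 difference of 1.04 ± 0.14 SE (edgeR adjusted p = 0.0121). H2-Aa had 5458 and 5557 CPM in aged and 3275 and 2940.1 CPM in young cells (0.88 ± 0.14, adjusted p = 0.0249), and H2-Ab1 had 5518 and 5353 CPM in aged and 3226 and 2964 CPM in young cells (0.87 ± 0.14, adjusted p = 0.0249). Cd74, the invariant chain that guides class II molecules, had 13393 and 12944 CPM in aged and 7879.5 and 7604 CPM in young cells (0.82 ± 0.13, adjusted p = 0.0234). The aged libraries stood close together and well above both young libraries for each gene. These 4 were the genes called among 16 of the Cx3cr1 and MHC class II list, whose median was 0.47, against 0.00034 over all genes.

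In other macrophages the same 4 genes were higher by 0.58 for H2-Eb1 (adjusted p = 0.0641), 0.45 for H2-Aa (0.0867), 0.47 for H2-Ab1 (0.0745) and 0.36 for Cd74 (0.119), so none passed there. The difference between the age effects of the 2 kinds of macrophage did not pass either, at 0.45 for H2-Eb1 (edgeR interaction, adjusted p = 0.505) and 0.45 for Cd74 (adjusted p = 0.381). Per cell, the 4 genes took a median of 319 and 318 of every 10000 UMIs in aged and 133 and 100.4 in young proliferating cells. More than 200 per 10000 were found in 16 of 27 and 29 of 43 aged cells, and in 35 of 90 and 41 of 107 young cells. The spread within a library was wide, with lowest and highest cells at 2.85 and 843 in aged library 1, and 0 and 677 in young library 1. Without the barcodes marked as doublets the medians were 284 and 377 in aged and 157 and 72.2 in young cells. In that smaller set the summed log2 differences were 1.09 for H2-Eb1 and 0.90 for Cd74, and the calls were lost (edgeR adjusted p = 0.241 and 0.531), as were those of H2-Aa and H2-Ab1 (0.461 each). The dendritic cell genes summed to 76.8 and 260 CPM in aged and 121 and 239.8 CPM in young proliferating cells. More dendritic-list than C1q UMIs were held by 0 of 27 and 4 of 43 aged barcodes. Among young barcodes it was 0 of 90 and 4 of 107. The part of such barcodes in the MHC class II rise was not tested.

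Cxcl13, the chemokine that draws B cells, at chr5:95956951-95961068, had 158 and 142 CPM in aged and 5.97 and 9.86 CPM in young proliferating cells, a log2 difference of 4.25 ± 0.30 SE (edgeR adjusted p = 8.0e-04). In other macrophages it stood at 272 and 211 CPM in aged and 60.6 and 16.7 CPM in young libraries (2.72, adjusted p = 0.0415). The proliferating cells' value rested on 152 UMIs in 12 of 70 aged cells, 55 of them in 1 cell. Cd300c2, an immune receptor gene of the CD300 family, had 175 and 184 CPM in aged and 68.2 and 70.6 CPM in young cells (1.42 ± 0.20, adjusted p = 0.0178) and was seen in 48 of 70 aged cells. Gngt2, a G protein subunit, had 105 and 160.5 CPM in aged and 45.2 and 36.4 CPM in young cells (1.78 ± 0.28, adjusted p = 0.0234). Both also rose in other macrophages, by 1.15 (adjusted p = 0.0075) and 1.75 (adjusted p = 0.0021). Without the barcodes marked as doublets Cxcl13 was too low to be tested, and the calls of Cd300c2 (1.27, adjusted p = 0.108) and Gngt2 (1.18, adjusted p = 0.786) were lost. Igkc, an immunoglobulin light chain gene of plasma cells chosen after its values were seen, had 130 and 213 CPM in aged and 3.41 and 8.35 CPM in young proliferating cells (4.88, adjusted p = 0.0011), and its log2 difference in other macrophages was 6.05.

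**Figure D4:**
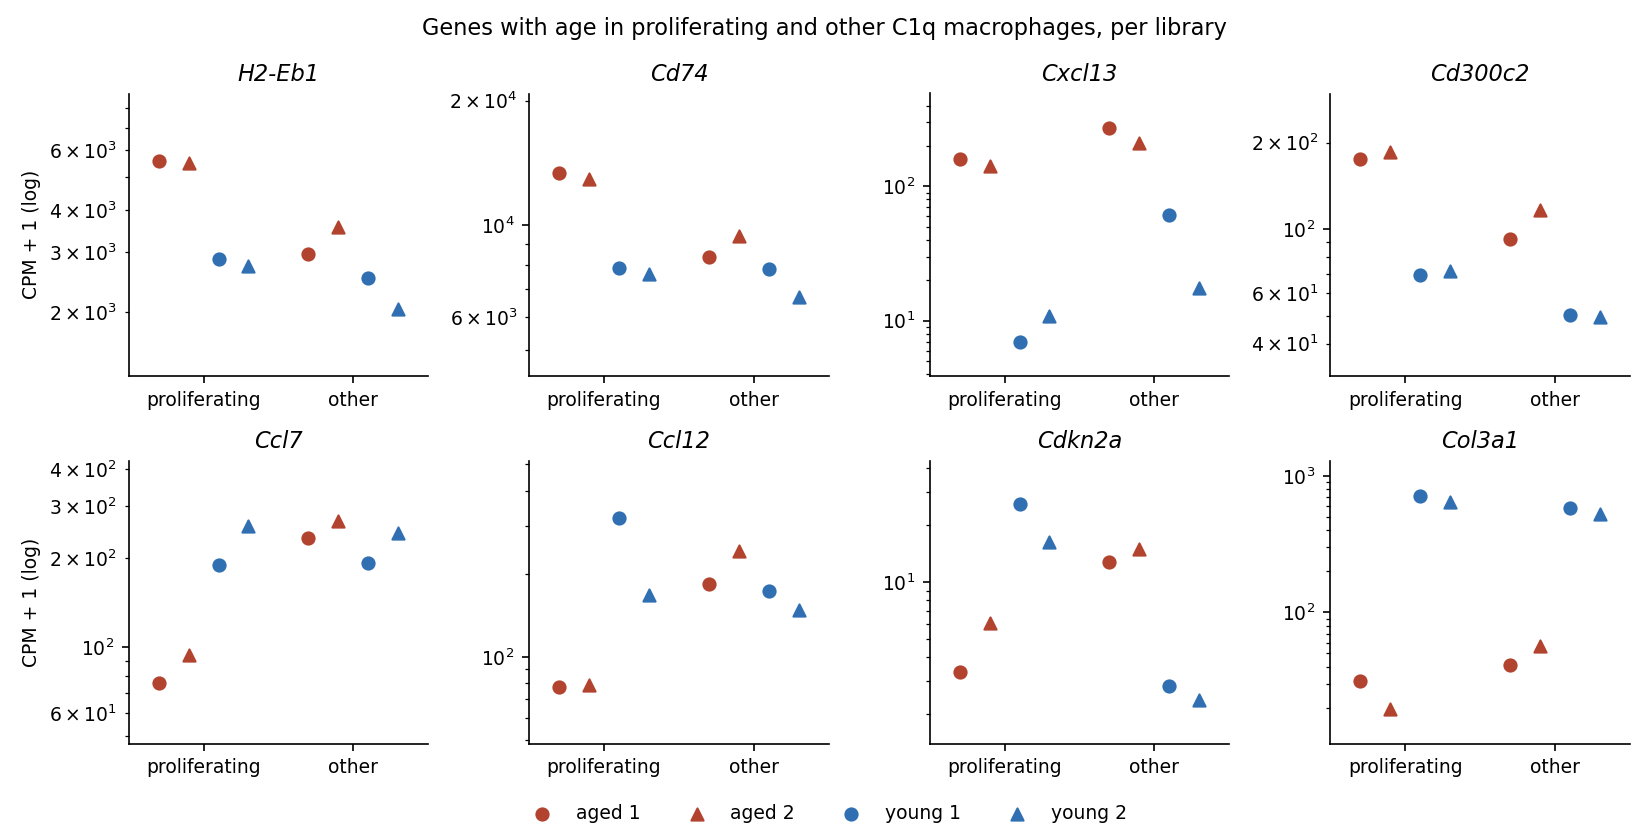
Levels in CPM with 1 added (log y axis) of 8 genes in proliferating and other macrophages, 1 point for each aged and young library. H2-Eb1, Cd74, Cxcl13 and Cd300c2 lie higher in the aged proliferating cells, and Ccl7, Ccl12, Cdkn2a and Col3a1 lower, while Cdkn2a lies higher in the aged other macrophages.

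For 4 genes that fell or rose with age in other macrophages, the edgeR test in the proliferating cells did not pass as designed. Trem2, a lipid-sensing receptor, had 186 and 355 CPM in aged and 95.5 and 107 CPM in young proliferating cells (1.49, adjusted p = 0.0718). In other macrophages its log2 difference was 1.52 (adjusted p = 0.0030). The chemokine Ccl8 had 4412 and 1890.1 CPM in aged and 765 and 1238 CPM in young proliferating cells (1.69, adjusted p = 0.0905), against 2.16 in other macrophages (adjusted p = 0.0010). Cd163 had 25.6 and 118 CPM in aged and 205 and 289.8 CPM in young proliferating cells (-1.65, adjusted p = 0.254), against -1.22 in other macrophages (adjusted p = 0.0040). Timd4 had 27.9 and 50.7 CPM in aged and 107 and 92.6 CPM in young proliferating cells (-1.24, adjusted p = 0.133). In other macrophages its log2 difference was -0.55 (adjusted p = 0.0255). The first 3 of these calls depended on the setting: Trem2 passed in 8 of 12 alternatives (with DESeq2 at 0.0111), Ccl8 in 9 of 12 (without the barcodes marked as doublets 3.24, adjusted p = 0.0396) and Cd163 in 6 of 12. With the replicate block these 3 genes had adjusted p of 0.0025, 0.0257 and 0.0060. The aged and young proliferating cells did not overlap for any of these 4 genes, nor for 39.3% of all tested genes. The difference between the age effects passed for none of them (adjusted p 0.862 to 0.996).

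The genes that fell most were collagens and other matrix genes that fibroblasts make. Col3a1 had 30.3 and 18.6 CPM in aged and 716 and 643 CPM in young proliferating cells (-4.78 ± 0.26 SE, edgeR adjusted p = 1.8e-04). Col1a2 had 44.2 and 47.3 CPM in aged and 919 and 561 CPM in young cells (-3.95 ± 0.29, adjusted p = 8.0e-04), and Sparc, which binds collagen outside the cell, had 121 and 218 CPM in aged and 1270.1 and 1079.7 CPM in young cells (-2.71 ± 0.27, adjusted p = 0.0031). Collagen genes were 9 of the 55, and Col1a1 (-4.06), Dpt (-3.74), Penk (-3.57), Col6a1 (-3.53), Clec3b (-3.17), Pcolce (-3.14) and the collagen chaperone Serpinh1 (-2.69) completed the 10 largest falls. Without the barcodes marked as doublets the calls of Penk (adjusted p = 0.175), Col6a1 (0.0928) and Clec3b (0.0585) were lost. Without those with 10 or more other-lineage UMIs Col1a1 (-2.31, adjusted p = 0.109) and Pcolce (-1.95, adjusted p = 0.135) were lost, and Dpt, Penk, Col6a1, Clec3b and Serpinh1 were too low to be tested. Serpinh1 was also lost with DESeq2 (0.350), while Col3a1, Col1a2 and Sparc passed in 12 of 12 alternatives in which they were tested. Other macrophages had Col3a1 at 40.4 and 55.8 CPM in aged and 578 and 522 CPM in young libraries (-3.45, adjusted p = 0.0011), and the difference between the age effects did not pass (adjusted p = 0.0723). The 8 genes of the fibroblast list summed to 456 and 416 CPM in aged and 3809 and 3141 CPM in young proliferating cells, and to 569 and 975 CPM in aged and 3125 and 2990 CPM in young other macrophages. At least 5 of its UMIs were found in 1 of 27 and 3 of 43 aged and in 25 of 90 and 31 of 107 young proliferating cells. At least 20 were found in 1 and 3 aged and in 13 and 19 young cells. The median young cell held 2.18 and 2.40 per 10000 UMIs. The part of fibroblast transcripts, free or in doublets, in these falls was not tested.

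Endothelial transcripts rose in the aged proliferating cells through very few barcodes. Cldn5, a junction protein of blood vessels, had 97 and 51 UMIs in aged and 0 and 0 in young proliferating cells, at least 120-fold higher against the limit that 3 UMIs over the young cells set. The 148 UMIs came from 2 barcodes. Gpihbp1, a lipase anchor of capillaries, rose by 4.62 (adjusted p = 0.0219), with 83 of its 113 aged UMIs in 1 barcode. Over 7 endothelial genes, 268 of the 270 UMIs of aged library 1 lay in 1 barcode, and 4 of 43 cells of aged library 2 held 5 or more. The complement factor Cfd rose by 2.85 (adjusted p = 0.0106), with 50 of 98 aged UMIs in 1 barcode. With 20 or more C1q UMIs required its call was lost (1.81, adjusted p = 0.159), and without the barcodes marked as doublets it was too low to be tested. Without the barcodes marked as doublets, and also without those with 10 or more UMIs of other lineages, Cldn5 and Gpihbp1 were too low to be tested.

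**Figure D5:**
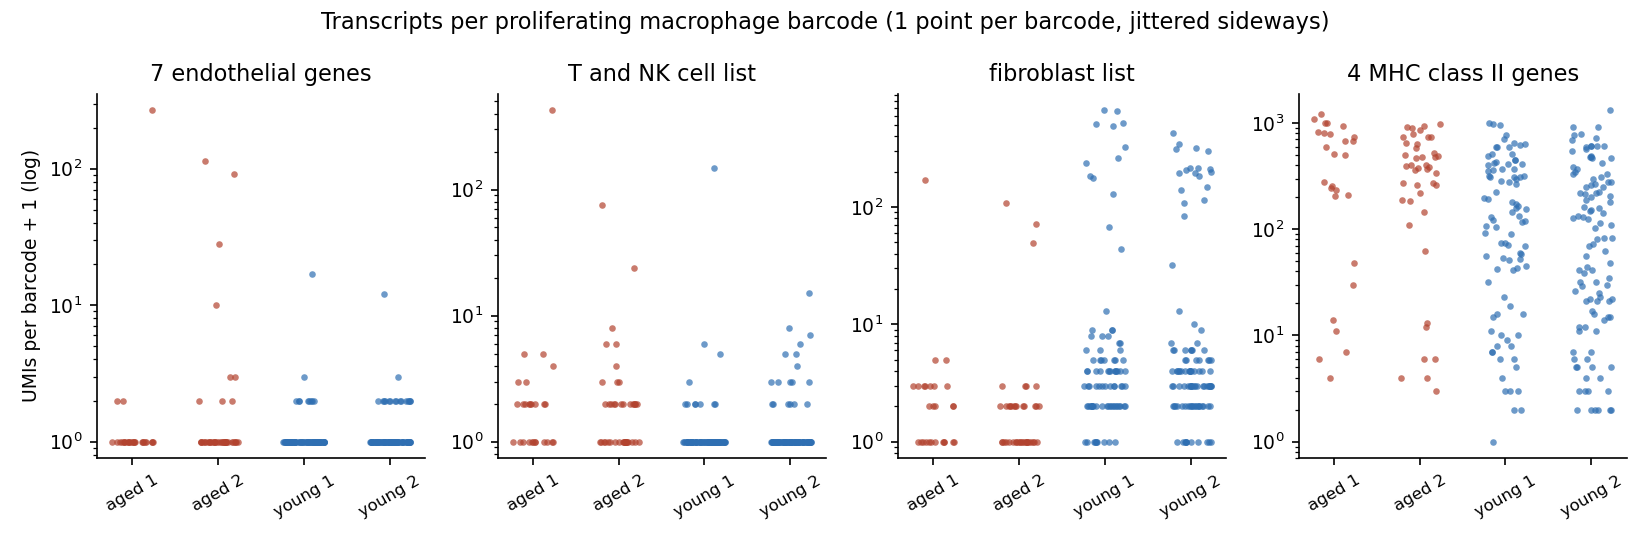
UMIs with 1 added (log y axis) of 7 endothelial genes, the T and NK cell list, the fibroblast list and 4 MHC class II genes in each proliferating macrophage, 1 point per barcode and spread sideways by library. A single barcode of aged library 1 holds 268 endothelial UMIs, and MHC class II UMIs are spread over most barcodes of all 4 libraries. Most young barcodes hold few fibroblast UMIs, and 13 of 90 and 19 of 107 hold 20 or more.

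The age effect itself was then compared between proliferating and other macrophages. It differed for 17 of 14639 genes (0.116%) by the edgeR interaction test with library as a block, 12 with a higher (0.082%) and 5 with a lower (0.0342%) effect in the proliferating cells. The test made 2 calls without the block, where Ccl7 and Ccl12 did not pass (adjusted p = 0.531 and 0.537), and 30 without the barcodes marked as doublets. Ccl7 and Ccl12, monocyte-attracting chemokine genes at chr11:82045712-82047525 and chr11:82101845-82103400, had age effects that differed between the 2 kinds of macrophage. Ccl7 had 74.5 and 92.9 CPM in aged and 189 and 256 CPM in young proliferating cells, against 234 and 266 CPM in aged and 192 and 243 CPM in young other macrophages. The difference between the age effects was -1.62 (adjusted p = 5.0e-04). Within the proliferating cells alone Ccl7 fell by 1.35 (adjusted p = 0.0489), a call that was lost without aged library 1 (adjusted p = 0.0693), with DESeq-type size factors (0.0555) and without the barcodes marked as doublets (0.262). Ccl12 had 76.8 and 77.7 CPM in aged and 319 and 166 CPM in young proliferating cells, against 183 and 241 CPM in aged and 172 and 147 CPM in young other macrophages (difference -2.02, adjusted p = 5.0e-04). In 1 young cell lay 117 of the 593 young Ccl12 UMIs. Their neighbour Ccl2 had 398 and 236 CPM in aged and 409 and 480.3 CPM in young proliferating cells, and its difference of -0.59 did not pass (adjusted p = 0.597).

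Cdkn2a, the gene of the cycle inhibitor p16 at chr4:89274471-89294653, had age effects that differed between the 2 kinds of macrophage. It had 2.33 and 5.07 CPM in aged and 24.7 and 15.2 CPM in young proliferating cells, which is 1 and 3 UMIs in aged and 29 and 20 UMIs in young cells. Other macrophages had 11.8 and 13.9 CPM in aged and 1.82 and 1.37 CPM in young libraries. A Cdkn2a UMI was found in 4 of 70 aged and 32 of 197 young proliferating cells, the most in any young cell being 4. The difference between the age effects was -5.37 ± 0.66 SE (adjusted p = 5.1e-04). In other macrophages the gene rose by 3.07 (adjusted p = 0.0022), and within the proliferating cells the difference of -2.25 did not pass (adjusted p = 0.218). The UMIs in aged proliferating cells are few, and 3′ counts of the p16 transcript and of the p19 transcript of the same gene cannot be told apart. Il1b, the interleukin-1 beta gene, had 2.33 and 28.7 CPM in aged and 107 and 53.1 CPM in young proliferating cells, against 67.7 and 54.4 CPM in aged and 37.7 and 31.2 CPM in young other macrophages (difference -2.97, adjusted p = 0.0102). Its call was lost without aged library 1 (adjusted p = 0.0620), without the library block (0.717) and with DESeq2. Retnla, a gene of alternatively activated macrophages, had 3276 and 1057 CPM in aged and 10208 and 5334 CPM in young proliferating cells, against 10724 and 7669 CPM in aged and 14836 and 13201 CPM in young other macrophages (difference -1.38, adjusted p = 0.0292). The Retnla call was lost without the library block (adjusted p = 0.859) and with DESeq2 (0.265).

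Genes of blood vessels also had different age effects, among them the caveolar genes Cav1 (difference 3.55) and Cavin2 (2.84), the water channel Aqp1 (4.54), Mgll (2.92) and Fabp4 (3.18), all higher in the aged proliferating cells. Without the barcodes marked as doublets the differences of Cav1 and Cavin2 were -0.12 and -0.31 and none of these 5 passed. Without the same barcodes Ccl7, Ccl12, Cdkn2a, Il1b and Retnla kept their calls, with differences of -2.01, -2.54, -6.47, -3.53 and -1.30. Only 15 and 20 aged proliferating cells were then left. Within the proliferating cells alone Cdkn2a was too low to be tested there, so its -6.47 is a fitted value on very few aged UMIs.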

How the data were processed

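Gene by barcode UMI counts, as deposited by the authors, were used for 2 aged and 2 young libraries of 52636 genes. Cell Ranger was used for mapping to GRCm38, version 6.0.2 per the submitters' processing notes and 6.0.1 per the file headers. Aligner settings and the annotation: not given in the sources used here. Gene positions are from GENCODE M21, where 52403 of the IDs matched.

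Members were chosen by the limits stated with the results, and the members, lists and tests were chosen with earlier results of these data known. Counts were summed per library over the proliferating and the other macrophages. Each comparison of ages was fitted over all genes left by filterByExpr with edgeR 4.0.16 (quasi-likelihood test, TMM, R 4.3.3) and Benjamini-Hochberg adjustment, with a threshold of 0.05. The difference between the age effects was an interaction term with library as a block. Shares were compared by a two-sided exact permutation test over libraries (scipy 1.17.1). CPM are UMIs per 1000000 summed UMIs of a library and kind of cell, and log2 ratios between kinds of cell are of mean CPM with 1 added. Proliferating against other macrophages is a description, since the choice of members used that contrast.

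Doublets were scored with Scrublet (scanpy 1.11.5) and were kept, and were removed as an alternative at 0.8% per 1000 deposited barcodes. Other alternatives were DESeq2 1.42.0, DESeq-type size factors, no filter on low counts, 1 library left out, a replicate block, other limits on Mki67, Top2a, C1q and other-lineage UMIs, and thinning to 3000 UMIs. The script was tested on simulated counts. Named genes were those of the gene lists, up to 10 rising and 10 falling genes of largest fold past the threshold with a mean of at least 50 CPM, the 15 highest and 10 lowest against other macrophages, and the 10 of smallest p in the interaction, leaving out predicted genes, immunoglobulin segments and mitochondrial genes. Genes named outside this rule are marked in the text. Intervals cover counting error only.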

Additional observations from a re-analysis of the deposited data

Results flagged for a closer look

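The effect of age differed between proliferating and other macrophages by an edgeR test of the difference itself for the 10 genes given here, each as the log2 age effect in proliferating minus that in other macrophages. Lower effects in the proliferating cells were found for the chemokines Ccl12 (-2.02) and Ccl7 (-1.62), the p16 gene Cdkn2a (-5.37) and Il1b (-2.97). Higher effects were found for Cldn5 (14.58), Cfd (3.14), Cav1 (3.55), Cavin2 (2.84), Aqp1 (4.54) and Mgll (2.92). The value of Cldn5 is a fitted one against young proliferating cells with 0 UMIs and is no bound. Aged endothelial UMIs lay in few barcodes, 268 of 270 in 1 barcode of aged library 1, and without the barcodes marked as doublets none of Cldn5, Cav1, Cavin2, Aqp1 and Mgll passed. Cdkn2a passed in the 12 alternatives in which its difference was tested, with edgeR or DESeq2 adjusted p up to 0.0303. Within the proliferating cells alone it was too low to be tested without the barcodes marked as doublets. With under 2 other-lineage UMIs, where 10 cells were left and 0 genes passed, it was too low to be tested.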

How the results depend on the processing

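The lower share of proliferating macrophages in aged libraries kept its direction in all alternatives, with ratios of 0.477 to 0.509 when 1 library was left out. Counts of genes changed with age moved. In proliferating macrophages (80) they were 408 without a filter on low counts, 208 with the replicate block, 25 without barcodes marked as doublets, 130 with 20 or more C1q UMIs, 0 with under 2 other-lineage UMIs (10 cells left, 239 genes tested, 1 at an unadjusted p under 0.05), 46 with under 10 (chosen after seeing the data) and 158 to 256 with 1 library left out. In other macrophages (1231) they were 2820 without the filter, 2408 with the replicate block and 349 to 2952 with 1 library left out. In all macrophages (1188) they were 2698, 2333 and 585 to 2384 in the same order. Differences between age effects (17) were 84 without the filter, 2 without the library block, 11 with DESeq2, 30 without doublets, 61 with 3 or more Mki67 and Top2a UMIs, 68 with 20 or more C1q UMIs, 0 with under 2 other-lineage UMIs (70 unadjusted), 33 with under 10 and 25 to 78 with 1 library left out. The causes were not tested.

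Signs reversed with under 2 other-lineage UMIs for Cd74 within proliferating cells (-0.11) and for the differences of Ccl12 (0.032), Ccl7 (0.66), Fabp4 (-0.17), H2-Eb1 (-0.37), H2-Aa (-0.31), H2-Ab1 (-0.31) and Cd74 (-0.61). They reversed with under 10 for Cldn5 (-0.022), Cav1 (-0.73), Cavin2 (-0.76) and Aqp1 (-7.99), and without doublets for Cav1 (-0.12), Cavin2 (-0.31), Aqp1 (-7.04) and Fabp4 (-1.20). Top2a in proliferating cells ranged between -0.25 and 0.18 with 1 library left out, and was 0.07 without young library 1.

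Libraries with the same number are not stated to be paired. Their deviations from the group means correlated at 0.252 over genes in proliferating and 0.292 in other macrophages, from 2 pairs. Only 70 aged cells and 2 libraries of each age limit these results: in simulated sums 4% of 2-fold and 42% of 4-fold differences between age effects were called.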
